A study of Rattus norvegicus with 8 samples.

Results

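The genes described here are 10 transcripts of fat cells and of fatty acid synthesis, measured in scalded and unscalded rat skin. They were given as a list of Ensembl identifiers with symbols, and all 10 were among the 26404 genes of the count table. In order of role they were adiponectin (Adipoq, ENSRNOG00000001821), adipsin (Cfd, ENSRNOG00000033564), the fatty acid binding protein Fabp4 (ENSRNOG00000010805), the nuclear receptor Pparg (ENSRNOG00000008839), lipoprotein lipase (Lpl, ENSRNOG00000012181), the insulin-regulated glucose transporter Slc2a4 (ENSRNOG00000017226), the fatty acid transporter Cd36 (ENSRNOG00000005906), fatty acid synthase (Fasn, ENSRNOG00000045636), stearoyl-CoA desaturase (Scd, ENSRNOG00000013552) and carbonic anhydrase 3 (Car3, ENSRNOG00000010079). The count table holds identifiers alone and the reference table carries no Ensembl rat identifier, so each symbol rests on that list and could not be looked up a second time. The question was whether the fat content of the excised skin, as read from these transcripts, differed among the libraries and between burned and control sites.

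Skin came from the dorsal hind paw of Sprague-Dawley rats of 125 to 200 g under urethane anaesthesia. In the 4 burn libraries the paw had been held in 60 °C saline for 2 min, which gives a deep partial-thickness burn. In the 4 control libraries the contralateral paw had been held in saline at room temperature for the same time. Every site had carried a microdialysis probe, and the sources used here give no time from burn to excision. No label pairs the paws of one rat or says that the libraries of a group are separate animals, so p-values measure only the spread between these samples.

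White fat cells store triglyceride in a single large droplet, and a layer of them lies beneath the dermis, where a full-depth skin sample can include more or less of it. Pparg drives their differentiation and controls many genes of lipid uptake and storage, but it was also preset here as a marker of sebaceous gland. Adiponectin and adipsin are secreted mainly by fat cells, and Fabp4, which carries fatty acids in the cytoplasm, is abundant in fat cells but is also made by macrophages and capillary endothelium. Fasn and Scd act in turn to make and desaturate fatty acids, and they are active in sebaceous glands as well as in fat. Car3, Slc2a4, Lpl and Cd36 are shared by fat and skeletal muscle. In bulk tissue, fewer cells of a type and less RNA per cell cannot be told apart.

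Libraries held 13693811 to 26837925 counts. Burn replicate 3 stood apart with 15354 genes detected, against 17322 to 17547 in the other 7 libraries, and control replicate 4 had 97 genes over 16-fold above all other control libraries, against 0 or 1 such gene in each other control. Beyond the genes of the set, no marker of muscle, sebaceous gland, endothelium, macrophage or any other cell type could be looked up by symbol in this table. The part of these cell types in the results was not tested.

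Promoter sequence was held for 5 of the 10 genes in the RefSeq table of the GRCr8 build, matched by symbol. The 3 windows below are shown because Adipoq and Cfd fell together in burned skin, while Scd, from the synthesis branch, did not pass the test. Each is the 250 bases before the annotated start, 5′ to 3′ on the gene's strand, with any searched motif in capitals. Adipoq lies at chr11:91240170-91240419, Cfd at chr7:10465497-10465746 and Scd at chr1:253231732-253231981, all on the minus strand.
Adipoq: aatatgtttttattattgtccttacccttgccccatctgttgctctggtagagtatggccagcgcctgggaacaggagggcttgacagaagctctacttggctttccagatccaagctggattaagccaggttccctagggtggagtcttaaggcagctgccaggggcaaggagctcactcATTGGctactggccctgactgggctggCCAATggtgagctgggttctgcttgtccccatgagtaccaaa
Cfd: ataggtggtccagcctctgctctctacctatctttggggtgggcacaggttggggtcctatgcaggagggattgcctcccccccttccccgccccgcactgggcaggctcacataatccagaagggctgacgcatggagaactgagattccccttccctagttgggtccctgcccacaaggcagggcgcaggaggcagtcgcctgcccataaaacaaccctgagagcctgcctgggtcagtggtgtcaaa
Scd: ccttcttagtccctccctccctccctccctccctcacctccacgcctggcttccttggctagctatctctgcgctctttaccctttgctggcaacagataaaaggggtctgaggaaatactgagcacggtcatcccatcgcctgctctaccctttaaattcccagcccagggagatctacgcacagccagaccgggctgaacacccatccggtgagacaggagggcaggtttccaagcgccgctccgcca

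The promoter letters searched, on both strands, were the CCAAT box, the TATAAA box, the E-box CACGTG, the nuclear receptor core site AGGTCA, and DR1, a direct repeat of that core site with 1 base between its copies, which therefore contains it. Adipoq held CCAAT on the plus sense at 42 to 38 bases before the start and its reverse complement at 69 to 65 bases before it. Cfd and Scd held none of the 5 motifs in these windows. Among the windows not shown, one of Pparg, a gene that did not pass the test, held CCAAT at 103 to 99 bases before the start. That of Cd36 held the reverse complement of TATAAA at 175 to 170 bases before it. Over all 33469 RefSeq windows of this length, 34.0% held CCAAT, 12.9% held TATAAA, 5.59% the E-box, 14.1% the core site and 0.0508% DR1. A match or its absence is a description of these letters only.

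Burned skin held far less of the adiponectin and adipsin transcripts, more of the Fabp4 transcript, and scattered amounts of the synthesis genes, so the 10 genes did not move as one group. Of the 10 genes 9 had enough counts to be tested, and 1 rose and 3 fell (edgeR quasi-likelihood test, adjusted p under 0.05 over all 14240 genes tested). Among all genes tested 11.9% were called higher in burn and 10% lower. The median log2 fold change was -1.48 over the 9 genes and 0.06 over all genes, and 8 of the 9 were negative against 46.6% of all genes. In 4 genes the whole burn group lay below the whole control group, and in 1 gene it lay above, where 15.6% and 15.4% of all genes tested had those patterns. The genes in these counts were chosen with earlier results of these data known, and are not a random sample.

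**Figure D1:**
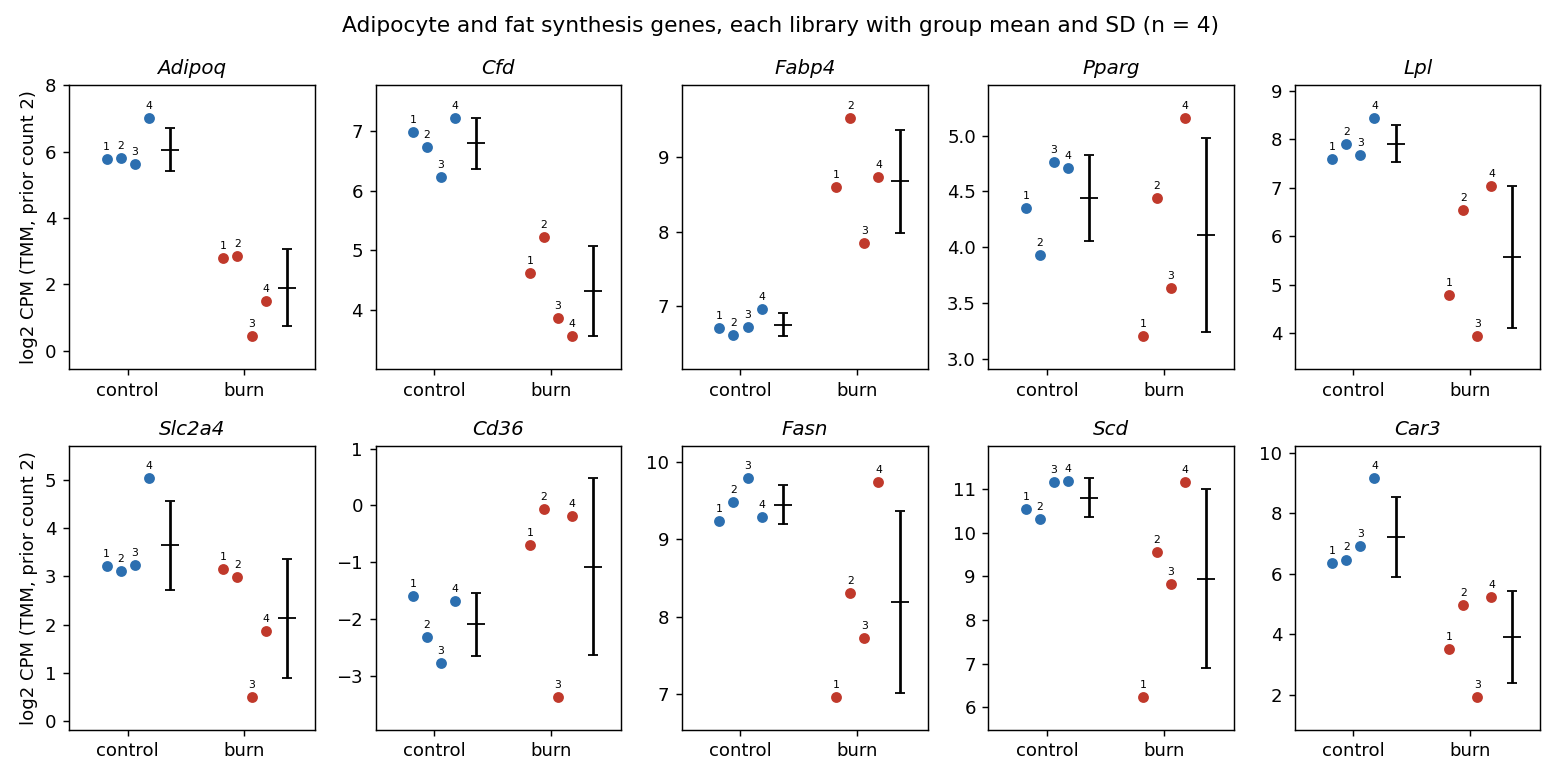
Normalised level in log2 CPM of each of the 10 genes, 1 point per library with its replicate number, blue for control and red for burn, with the group mean and SD (n = 4) in black at the right of each group. Adipoq, Cfd, Lpl and Car3 have all burn points below all control points, Fabp4 has all burn points above, and the other 5 genes overlap.

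Adipoq, the hormone most specific to fat cells among these genes, stood at 6.86, 7.16, 1.26 and 2.71 CPM in burn replicates 1 to 4. In control replicates 1 to 4 it stood at 54.1, 55.3, 49.4 and 129.7 CPM. Every burn library was below every control library, with 24 counts in the lowest burn library, replicate 3, and 1000 in the control library with the fewest. Adipoq fell by 4.02 on the log2 scale (SE 0.60, edgeR adjusted p = 0.00502), or 16.2-fold, with a 95% interval of 6.30 to 41.6-fold. From the most negative log2 fold change upward, Adipoq ranked 26 among the 14240 genes tested. The log2 fold change was -3.57 without control replicate 4, the library with the highest level, and -3.70 without burn replicate 3, the lowest.

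Cfd encodes adipsin, the complement factor D that fat cells release into blood. It stood at 24.6, 37.3, 14.4 and 11.7 CPM in burn replicates 1 to 4, and at 126.2, 106.5, 75.1 and 149.0 CPM in control replicates 1 to 4. The groups did not overlap, and the nearest values were burn replicate 2 and control replicate 3. Cfd fell by 2.38 on the log2 scale (SE 0.39, edgeR adjusted p = 0.00688), or 5.19-fold, with a 95% interval of 2.82 to 9.57-fold.

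Fabp4 moved against these genes. Its level was 387.7, 737.1, 229.9 and 425.2 CPM in burn replicates 1 to 4, and 104.3, 97.7, 105.8 and 125.1 CPM in control replicates 1 to 4. All burn libraries were above all control libraries, and the controls lay within 1.28-fold of one another. Fabp4 rose by 2.04 on the log2 scale (SE 0.33, edgeR adjusted p = 0.00646), or 4.11-fold, with a 95% interval of 2.46 to 6.88-fold. The highest level was in burn replicate 2, which also had the highest Adipoq and Cfd levels among the burn libraries, and the lowest of the burn levels was in burn replicate 3.

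Pparg, the receptor that directs fat cell differentiation, showed no change that passed the test. Its level was 9.12, 21.7, 12.3 and 35.6 CPM in burn replicates 1 to 4, and 20.3, 15.2, 27.1 and 26.1 CPM in control replicates 1 to 4. Burn replicates 1 and 3 lay below all controls, burn replicate 4 lay above all of them and burn replicate 2 lay among them. The log2 fold change was -0.17 (SE 0.41, edgeR adjusted p = 0.794), with a 95% interval of -1.10 to 0.76, and it was 0.07 without burn replicate 1.

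**Figure D2:**
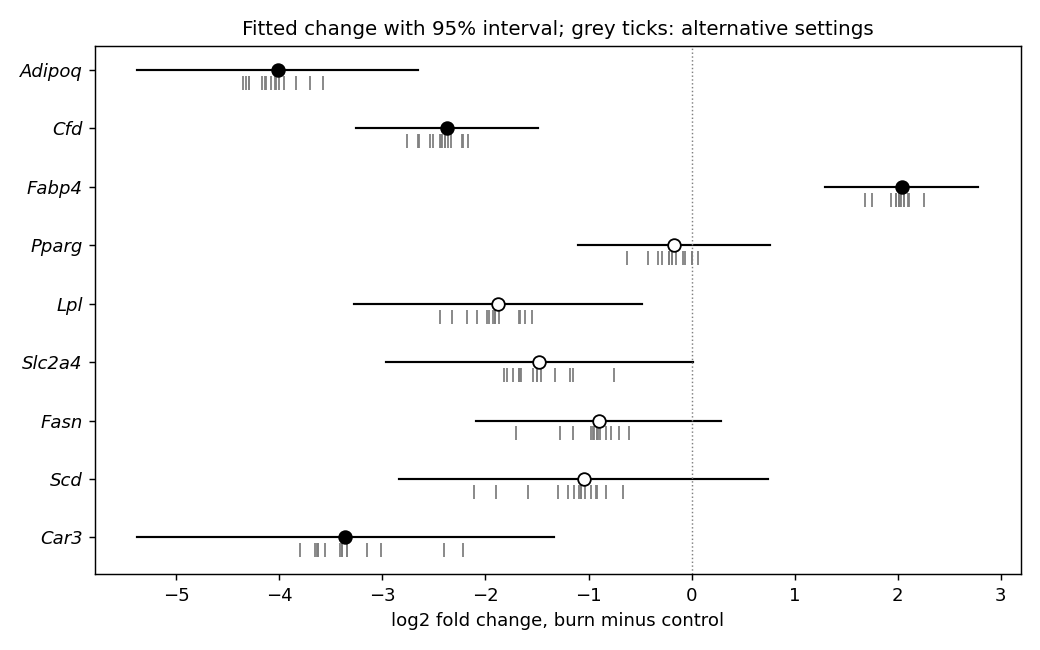
Fitted log2 fold change, burn minus control, of the 9 genes tested, with the 95% interval as a line, filled circles for an adjusted p under 0.05 and open circles otherwise, and grey ticks for the 15 alternative settings of each gene. Adipoq at -4.02, Cfd at -2.38, Car3 at -3.36 and Fabp4 at 2.04 passed the test, and no tick of these 4 genes crosses 0.

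Among the genes of uptake, Lpl releases fatty acids from circulating lipoproteins at the capillary wall. It stood at 27.5, 93.7, 15.3 and 131.4 CPM in burn replicates 1 to 4, and at 194.1, 238.0, 204.5 and 348.7 CPM in control replicates 1 to 4. All burn libraries lay below all controls, but burn replicates 2 and 4 were well above replicates 1 and 3. The log2 fold change was -1.88 (SE 0.62, edgeR adjusted p = 0.0578), just outside the threshold. It was inside the threshold under 6 of 15 alternatives. Among them were refits without burn replicate 3 (-1.55, edgeR adjusted p = 0.0473) or without burn replicate 4 (-2.44, edgeR adjusted p = 0.0337). Of all genes tested, 13.3% and 8.05% were called lower in these refits, against 10% in the main fit.

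Slc2a4, the transporter that insulin brings to the surface of fat and muscle cells, stood at 8.86, 7.88, 1.31 and 3.55 CPM in burn replicates 1 to 4. In control replicates 1 to 4 it stood at 9.16, 8.59, 9.34 and 32.7 CPM. Burn replicates 1 and 2 were close to 3 of the controls, and control replicate 4 was 3.50 times the next highest control. The log2 fold change was -1.48 (SE 0.66, edgeR adjusted p = 0.135), with a 95% interval of -2.97 to 0.01, and it was -0.75 without control replicate 4.

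Cd36, which carries long-chain fatty acids across the membrane of fat, muscle and endothelial cells, had too few counts to pass the expression filter of the main fit. Its raw counts were 6, 13, 0 and 13 over burn replicates 1 to 4. Over control replicates 1 to 4 they were 6, 3, 1 and 6, so no library exceeded 13. The 0 in burn replicate 3 allows up to 0.157 CPM, taking 3 counts as the limit. Summed counts were 32 in burn and 16 in control, a ratio of normalised counts of 3.30. Its exact 95% counting interval of 1.76 to 6.44 leaves out the spread between libraries. A two-sided exact permutation test over the 8 libraries gave p = 0.143. Without the expression filter the log2 fold change was 1.73, with a 95% interval of -0.58 to 4.04 (edgeR adjusted p = 0.290). The symbol of this identifier could not be looked up a second time. The sources used here also do not say how reads shared by similar gene copies were counted. Why the counts were low was not tested, and they are not read as the level of Cd36 in the tissue.

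The synthesis genes varied widely among the burn libraries, and neither passed the test. Fasn, which builds palmitate, stood at 124.6, 317.4, 211.7 and 856.8 CPM in burn replicates 1 to 4, and at 602.3, 713.5, 882.4 and 625.1 CPM in control replicates 1 to 4. Burn replicates 1, 2 and 3 were below every control, and burn replicate 4 was among them. The log2 fold change was -0.90 (SE 0.53, edgeR adjusted p = 0.242), with a 95% interval of -2.09 to 0.29. Without burn replicate 4 Fasn passed the threshold at -1.70 (edgeR adjusted p = 0.0177).

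Scd introduces the double bond that turns stearate into oleate. It stood at 75.4, 756.4, 451.8 and 2286 CPM in burn replicates 1 to 4, and at 1491, 1264, 2298 and 2328 CPM in control replicates 1 to 4. The burn libraries spanned 30.3-fold and the controls 1.84-fold, with burn replicate 4 again among the controls and burn replicate 1 far below all other libraries. The log2 fold change was -1.05 (SE 0.79, edgeR adjusted p = 0.364), with a 95% interval of -2.84 to 0.74. It was -2.11 without burn replicate 4 and -0.66 without burn replicate 1, and neither passed the threshold. Scd has close relatives in the rat genome, and how reads shared with them were counted is not given.

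The normalised count of Scd was 2.38, 2.13 and 2.67 times that of Fasn in burn replicates 2, 3 and 4, and 1.77 to 3.72 times in the controls. In burn replicate 1 it was 0.606 times, below all others. These ratios are of counts and not per length, so they compare libraries and not the levels of the 2 genes. The groups overlapped, and the difference between them was -0.59 log2 units (two-sided exact permutation test, n = 4 and 4, p = 0.371).

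Car3 is a cytosolic carbonic anhydrase abundant in fat cells and in slow muscle fibres. It stood at 11.3, 31.4, 3.73 and 37.2 CPM in burn replicates 1 to 4, and at 81.2, 88.6, 120.4 and 567.5 CPM in control replicates 1 to 4. The groups did not overlap, and control replicate 4 was 4.71 times the next highest control. Car3 fell by 3.36 on the log2 scale (SE 0.89, edgeR adjusted p = 0.0294), or 10.3-fold, with a 95% interval of 2.53 to 41.5-fold. Car3 passed the threshold in 5 of the 8 refits with 1 library left out. Without control replicate 4 its log2 fold change was -2.21 (edgeR adjusted p = 0.0715), the largest move. It was -3.62 without control replicate 2 (edgeR adjusted p = 0.0540) and -3.15 without burn replicate 1 (edgeR adjusted p = 0.0800). Fewer of all genes tested were also called lower in these refits. The shares were 4.68%, 3.75% and 5.52% in that order, against 10% in the main fit.

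**Figure D3:**
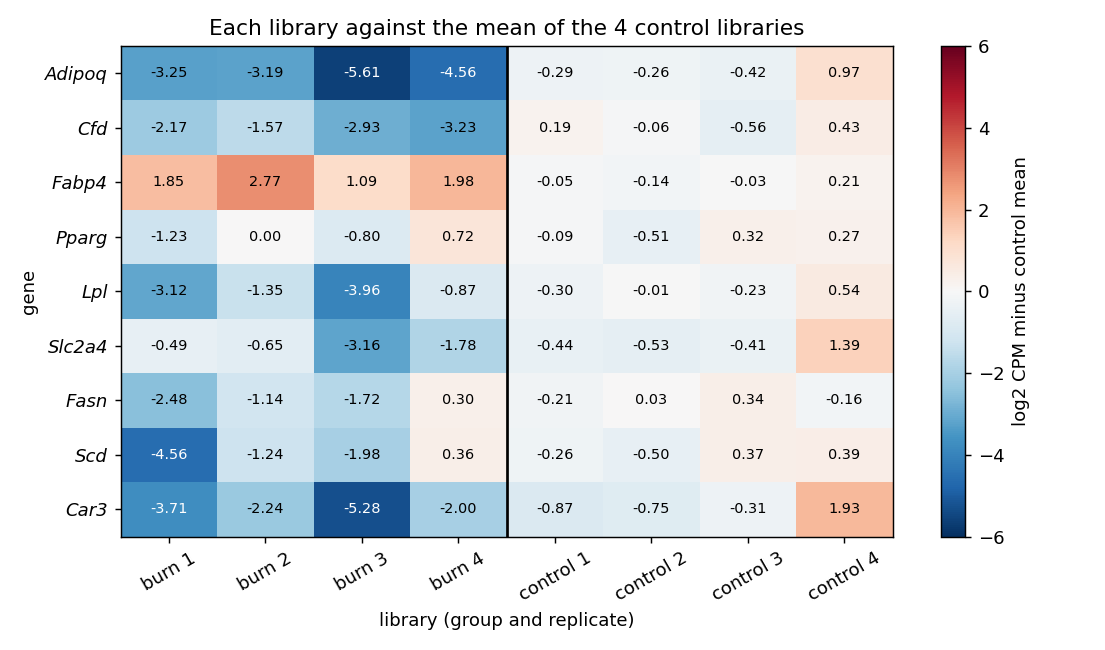
Log2 CPM of each of the 9 genes tested minus the mean of the 4 control libraries, 1 column per library, with the value in each cell and red for above and blue for below. Fabp4 is above the control mean in all burn libraries, Adipoq, Cfd, Lpl and Car3 are below it in all 4, and burn replicate 4 is at 0.30 for Fasn and 0.36 for Scd while at -4.56 for Adipoq.

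The genes did not order the burn libraries alike. Burn replicate 4 had the highest level of the 4 burn libraries for Pparg, Lpl, Car3, Fasn and Scd, and the lowest for Cfd. Burn replicate 2 was highest for Adipoq, Fabp4 and Cfd. Burn replicate 3, the library with fewest genes detected, was lowest for Adipoq, Fabp4, Lpl, Car3 and Slc2a4, whereas burn replicate 1 was lowest for Pparg, Fasn and Scd. Thus the library with the second lowest Adipoq level, burn replicate 4, held Fasn and Scd at control levels.

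Fat transcripts also differed among the control libraries. Control replicate 4 had the highest level of 7 of the 9 genes, all but Pparg and Fasn, which were highest in control replicate 3. The share of all genes tested that was highest in control replicate 4 is not given here, so that count has no background. The level in control replicate 4 was 2.35 times the next highest control for Adipoq and 1.47 times for Lpl. It was 1.18 times for both Cfd and Fabp4, and 1.01 times for Scd. The largest excesses were in Car3, at 4.71 times, and Slc2a4, at 3.50 times, genes that muscle shares, and no muscle marker could be looked up beside them. The SD of log2 CPM among controls was 0.65 for Adipoq, 0.93 for Slc2a4 and 1.31 for Car3, above 91.9%, 97.3% and 99.0% of all genes tested, whose median SD was 0.253. It was 0.15 for Fabp4 and 0.25 for Fasn, larger than in 23.8% and 49.2% of genes. The other 3 control libraries lay within 49.4 to 55.3 CPM for Adipoq and 8.59 to 9.34 CPM for Slc2a4.

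The summed share of the 10 genes in a library's total was 0.0569% in burn replicate 1, 0.162% in replicate 2, 0.113% in replicate 3 and 0.339% in replicate 4. It was 0.286%, 0.278%, 0.428% and 0.453% across control replicates 1 to 4. The 95% Wilson intervals of these shares reached at most 0.00303 percentage points to either side and cover counting error only. The groups overlapped at burn replicate 4, and the means were 0.168% ± 0.122 in burn and 0.361% ± 0.0919 in control (SD, n = 4). Fasn and Scd gave 68.2% to 84.3% of these counts in the control libraries and from 29.6% in burn replicate 1 to 82.9% in burn replicate 4. Fabp4 gave 2.81% to 3.89% in the controls and 57.3%, 36.7%, 24.4% and 11.2% in burn replicates 1 to 4. Fasn and Scd were thus the larger part of the sum in every library but burn replicate 1, where Fabp4 was. The sum also carried Fabp4, which rose in burn.

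The 7 genes other than Fabp4, Fasn and Scd summed to 0.00746%, 0.0161%, 0.00579% and 0.0199% over burn replicates 1 to 4. Over control replicates 1 to 4 the sums were 0.0518%, 0.0551%, 0.0552% and 0.131%. Every burn library was below every control library for this sum, which was divided off after the values were seen and is a description. The identity genes Adipoq, Cfd, Fabp4 and Pparg together took 0.0435% ± 0.0149 in burn and 0.0341% ± 0.00740 in control (SD, n = 4). The higher mean in burn came with the rise of Fabp4, and the groups overlapped. Control replicate 4, at 0.0449%, was above burn replicates 1, 3 and 4, at 0.0360%, 0.0309% and 0.0424%.

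**Figure D4:**
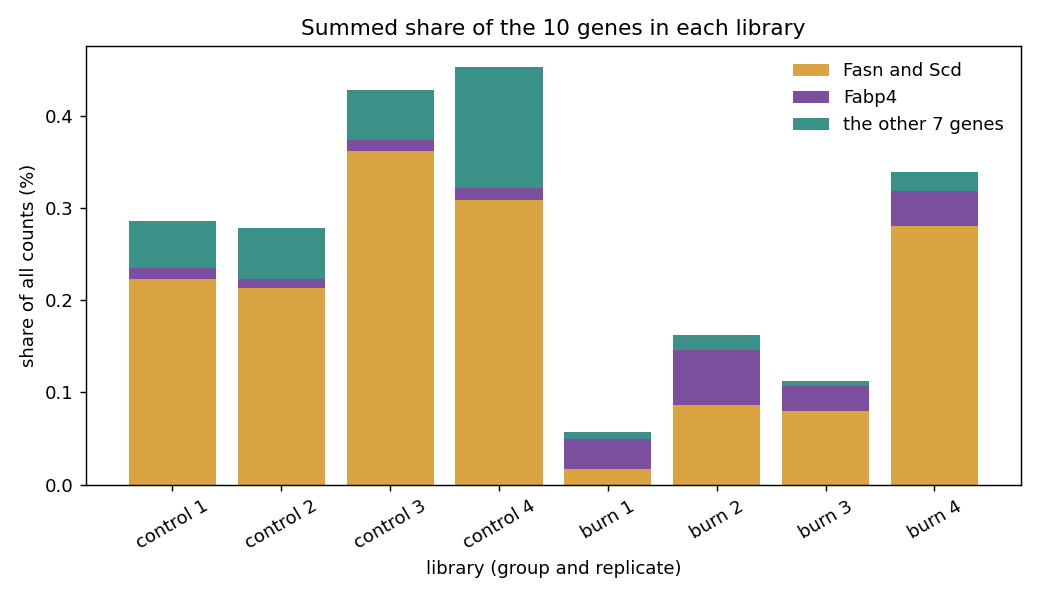
Share of all counts in percent taken by the 10 genes in each library, stacked as Fasn and Scd, Fabp4, and the other 7 genes. The control bars reach 0.278% to 0.453% and the burn bars 0.0569% to 0.339%, with burn replicate 4 inside the control range.

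Each gene was then read against Adipoq in the same library, as the difference of their log2 CPM values, so that a change in library scaling cancels. The 9 differences were compared between the groups with two-sided exact permutation tests (n = 4 and 4, smallest possible p = 0.0286) and adjusted over the 9. Fabp4 exceeded Adipoq by 0.70 ± 0.52 in control and 6.78 ± 0.73 in burn (SD, n = 4), a shift of 6.08 log2 units (exact permutation p = 0.0286, adjusted p = 0.0429). The same p and adjusted p, with no overlap of the groups, were found for shifts of 3.83 in Pparg, 2.89 in Fasn, 2.63 in Slc2a4 and 1.68 in Cfd, and for 5.17 in Cd36, which rests on few counts. Of all other genes tested 95.1% separated from Adipoq in the same way, so these separations are not particular to the set. Against Fabp4 71.5% of all other genes did so. Cfd fell less than Adipoq in the same libraries. Slc2a4 was even in this measure, at 0.05 to 0.38 above Adipoq in the burn libraries and at -2.67 to -1.98 in the controls.

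Lpl, Scd and Car3 were not separated from Adipoq by that test. Their shifts were 1.83 (exact permutation p = 0.0857, adjusted p = 0.110), 2.30 (exact permutation p = 0.171, adjusted p = 0.193) and 0.85 (exact permutation p = 0.257, adjusted p = 0.257). The groups overlapped for each. For Lpl and Scd the burn library nearest to or below the controls was replicate 1, at 1.98 and 3.44 log2 units above Adipoq. For Fasn the groups all but touched, with control replicate 3 and burn replicate 1 both at 4.16 after rounding.

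**Figure D5:**
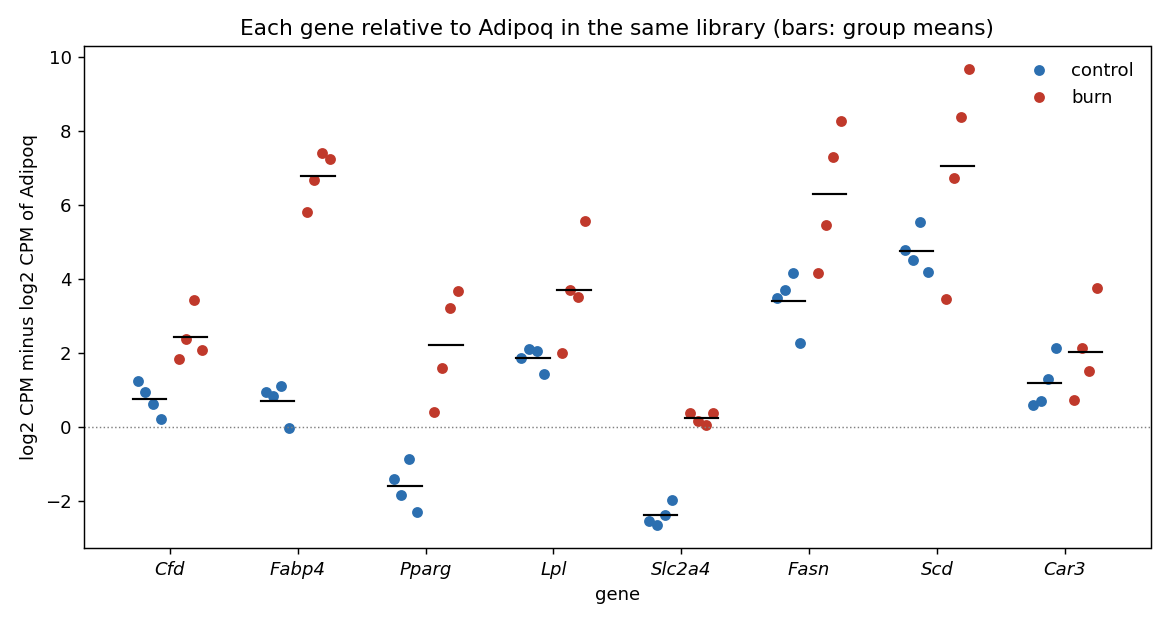
Log2 CPM of each of 8 genes minus log2 CPM of Adipoq in the same library, blue for control and red for burn, 4 points per group with a bar at the mean. Fabp4 moves from a mean of 0.70 in control to 6.78 in burn, and the burn points of Lpl, Scd and Car3 overlap the control points.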

How the data were processed

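Poly(A)-enriched RNA of 8 skin libraries was sequenced. The authors deposited raw counts of reads, 1 whole number for each Ensembl gene and library, and 0 rows named no gene. Build Rnor_5.0 is named in the submitters' processing notes, with limma, edgeR, HTSeq 0.5.4p3, TopHat2 2.0.9 and R 3.0.1. The sources used here do not give their roles, the strand setting or the annotation release. Groups came from the treatment label and replicate numbers from accession order.

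Counts were fitted over all genes with edgeR 4.0.16 in R 4.3.3 (quasi-likelihood test, robust dispersion, TMM, default expression filter, group as the only term, Benjamini-Hochberg adjustment, threshold 0.05). The SE is the log2 fold change divided by the square root of F, and the 95% interval uses the fit's degrees of freedom. CPM used TMM factors, and log2 CPM a prior count of 2. Alternatives used DESeq2 1.42.0 and limma 3.58.1. The code was tested on simulated data.

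All 10 members are named by rule. Members and lists were chosen with earlier results of these data known. The preset pathway and cell marker lists were not analysed here, because 0 of 47357 reference genes carry an Ensembl rat identifier. Likeness to Adipoq across libraries is not given, since its burn and control values do not overlap and a pooled correlation would follow the group.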

Additional observations from a re-analysis of the deposited data

Results flagged for a closer look

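Of 26 screens for a library that stands far from its group, 3 picked one, all in control replicate 4. Chance picks about 1 in 20 groups, and these screens share genes and a library. Adipoq was at 7.02 log2 CPM in control replicate 4, against 5.63 to 5.79 in the other controls. Slc2a4 was at 5.04 log2 CPM there, against 3.12 to 3.24. The 7 genes other than Fabp4, Fasn and Scd took 0.131% of its counts, against 0.0518% to 0.0552%. Without that library Adipoq still fell, by 3.57 log2 units (edgeR adjusted p = 0.0171).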

How the results depend on the processing

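Adipoq, Cfd and Fabp4 kept their direction and passed the threshold in all 15 alternatives, with log2 fold changes of -4.35 to -3.57, -2.76 to -2.17 and 1.68 to 2.25. Car3 kept its direction in all 15 and passed in 12, and Slc2a4, Scd and Pparg passed in none. Scaling by library size alone shifted the median over all genes from a log2 fold change of 0.06 to -0.15 and brought Lpl inside the threshold at -2.18, as did the DESeq2 Wald test (-1.91) and limma-voom without (-2.32) and with quality weights (-1.68). Fabp4 stayed higher at 1.75 under library size alone. Pparg changed sign with quality weights (0.0021) and without burn replicate 1 (0.066), over a range of -0.63 to 0.066 with 1 library left out. Leaving out 1 library at a time gave 2 to 5 lower genes and 1 higher gene of the set, beside 3.75% to 13.3% lower and 4.62% to 16% higher over all genes tested in the same refits, the 5 without burn replicate 4 being Adipoq, Cfd, Car3, Lpl and Fasn, where 8.05% of all genes were lower. The summed share of the 10 genes, burn minus control, was -0.194 percentage points, -0.149 over TMM effective sizes and -0.251 to -0.157 with 1 library left out, but 0.00945 for the 4 identity genes alone, which include Fabp4 and leave out Fasn and Scd by construction. Against Adipoq 6 of 9 ratios passed, as with a prior count of 0.5, and against Fabp4 8 of 9, beside 95.1% and 71.5% of all other genes whose groups did not overlap in these ratios. For changes with no reason given here, the cause was not tested. No paired analysis was possible because no label pairs libraries by animal. Each library title is a number, and the sources used here do not say what it stands for. The exact permutation tests therefore treat the libraries as unpaired. Cd36, with at most 13 counts in a library, was the only member too scarce to be tested under the expression filter.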
